A study of Mus musculus with 4 samples.

Results

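AMPA receptors are the glutamate-gated channels that carry fast excitatory transmission. Their pore is formed by 4 subunits encoded by Gria1 to Gria4. TARPs, the transmembrane AMPA receptor regulatory proteins encoded by the Cacng genes, bind these subunits, bring them to the cell surface and set their gating. A receptor without the Gria2 subunit passes calcium. In the cerebellum, Bergmann glia, the radial astroglia of the cortex, carry such Gria2-lacking receptors built from Gria1 and Gria4, whereas most receptors of Purkinje and granule neurons contain Gria2. The genes described are Gria1, Gria2, Gria3, Gria4, Cacng2, Cacng3, Cacng4, Cacng5, Cacng7 and Cacng8. They were taken by the gene name printed on the array, which gave 21 probes, each on 1 spot, for 10 genes, out of 41174 probes on the array. Of the 10 genes, 4 are AMPA subunits with 12 probes and 6 are TARPs with 9 probes.

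RNA came from whole cerebellum of mice at postnatal day 30. Each of 4 two-colour arrays compared 1 mutant (mGfap-Cre; Dicer flox/flox) with its control littermate (mGfap-Cre; Dicer +/flox), on a mixed strain background, so both groups carried the Cre transgene and at least 1 floxed allele. Dicer makes mature microRNAs, and the Cre is driven by a mouse Gfap promoter (line 73.12), so deletion is directed to astroglia while the array reads all cells of the tissue. Fewer cells of a type and less RNA per cell cannot be told apart in such samples. The mutant RNA was in Cy5 for pairs 1 and 3 and in Cy3 for pairs 2 and 4. Between 26291 and 28907 probes per channel were well above background. Markers of the labelled tissue were detected: Pcp2 of Purkinje neurons, Gabra6 of granule neurons and Slc1a3 of astroglia were well above background in both channels of all 4 arrays. So were Neurod6 of forebrain neurons and Ttr of choroid plexus, so detection alone does not single out the cerebellum. The mean log2 normalized intensity in controls was 14.9 for Gabra6, 12.4 for Ttr and 7.31 for Neurod6. Every ratio is log2 of mutant over control, given as mean ± SD over 4 pairs. A gene was called when its adjusted p, from limma with Benjamini-Hochberg adjustment over 18025 genes, was under 0.05.

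Of the 10 members, Gria4 was called lower and the other 9 were not called in either direction. Over all genes tested, 0.588% (106) were called higher, 0.449% (81) lower and 1.04% in either direction; with arrays centred on their medians in place of loess, the split was 117 higher and 245 lower and the median of all genes moved to -0.13. All 10 genes passed the filter on dim probes through at least 1 probe. The members' median ratio was -0.03 against 0.00 over all genes, and 8 of the 10 ratios were below 0, against 50.6% of all genes. At an unadjusted p under 0.05 there were 3 members (Gria4, Cacng4 and Cacng5), against 9.17% of all genes.

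The oligonucleotides show what each value rests on, since 5 of the 6 TARPs were read by a single probe and the 4 probes of Gria4 read different stretches. Coordinates are those of the array files, build mm9. The Gria1 and Gria3 probes shown first read the same conserved coding stretch of the ligand-binding region, with capitals where they differ; they are identical at 43 of 56 overlapping bases, with 13 mismatches. In the next closest of the 191 probe pairs between members, Gria3 and Cacng4, 29 of 60 bases were identical.
Gria1 A_51_P498031 (chr11:57102930-57102989, plus strand): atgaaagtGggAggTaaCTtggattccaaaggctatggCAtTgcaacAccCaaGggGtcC
Gria3 A_52_P179309 (chrX:39007367-39007426, plus strand): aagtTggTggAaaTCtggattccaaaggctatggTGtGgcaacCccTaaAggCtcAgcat
The Gria4 probes shown next lie in coding sequence. In the second, shown for its first 50 bases, the capitals mark the stop codon that ends the long carboxy-terminal form.
Gria4 A_52_P349182 (chr9:4502385-4502444, minus strand): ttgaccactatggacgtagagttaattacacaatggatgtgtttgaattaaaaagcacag
Gria4 A_51_P501735 (chr9:4420142-4420201, minus strand): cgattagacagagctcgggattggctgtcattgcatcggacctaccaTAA
The coding probes that each stand alone for a TARP are these, with no capitals.
Cacng3 A_51_P210163 (chr7:129912284-129912343, plus strand): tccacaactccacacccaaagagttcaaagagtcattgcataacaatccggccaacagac
Cacng4 A_51_P494875 (chr11:107603285-107655584, minus strand, split between its ends): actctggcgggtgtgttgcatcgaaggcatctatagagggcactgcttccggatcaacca
Cacng7 A_51_P327675 (chr7:3338624-3339037, plus strand, split between its ends): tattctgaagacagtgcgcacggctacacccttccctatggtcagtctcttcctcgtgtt
Cacng8 A_51_P160935 (chr7:3415329-3415388, plus strand): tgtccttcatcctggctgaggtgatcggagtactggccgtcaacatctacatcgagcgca

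Gria4 encodes a fast-gating subunit and is 1 of the pair of subunits used by Bergmann glia, although the array reads Gria4 from all cells of the tissue. Its brightest probe, A_52_P279527 (chromosome 9, 4418375 to 4418434), starts 1767 transcript bases beyond the start of the stop codon probe above. On this probe the log2 normalized intensity of the mutant channel was 12.63, 12.34, 12.77 and 12.44 in pairs 1 to 4, and that of the control channel was 12.82, 13.10, 12.90 and 13.12. The highest mutant value lay just below the lowest control value. The log2 ratios were -0.19, -0.76, -0.13 and -0.68, which is -0.44 ± 0.33 (1.36-fold lower, 95% interval -0.58 to -0.29, adjusted p = 0.0462), lower in 4 of 4 pairs.

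The ratios of this Gria4 probe split by dye. They averaged -0.16 where the mutant was in Cy5 and -0.72 where it was in Cy3, and the fitted dye term of 0.28 was larger in size than that of 97.9% of genes (median size 0.07). With the dye term taken out, the 4 ratios were -0.47, -0.48, -0.41 and -0.39, with an SD of 0.04. The dye term was fitted to these same 4 ratios. Taking it out makes the mean of pairs 1 and 3 equal to that of pairs 2 and 4. The small SD is therefore no separate sign that the animals agreed. Without a dye term in the fit, the adjusted p for Gria4 was 0.225. The call was also lost on leaving out pair 1 (-0.42, adjusted p = 0.364), pair 2 (-0.42, adjusted p = 0.0696) or pair 3 (-0.45, adjusted p = 0.299), and was kept on leaving out pair 4 (-0.46, adjusted p = 0.0476). Over the alternatives run, the ratio of Gria4 ran from -0.63 to -0.26 and its adjusted p from 0.00297 to 0.364.

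The other Gria4 probes also had means below 0, with different patterns over the pairs on A_51_P501735 and A_52_P349182 and a similar split by dye on A_52_P153588. The stop codon probe A_51_P501735 gave -0.16, -0.64, -0.49 and -0.06, a mean of -0.34 ± 0.27, with little dye term (0.01). All 4 pairs lay below 0 there, and pairs 2 and 3 were the lowest. Probe A_52_P153588 (chromosome 9, 4663303 to 4663362), for which the array file lists no RefSeq transcript, gave 0.06, -0.61, 0.06 and -0.33. On it the pairs with the mutant in Cy3 were below 0 and the others above, its dye term was 0.27, and its mean was -0.20 ± 0.33. With the dye term, again fitted to the same 4 ratios, taken out, its ratios were -0.20, -0.34, -0.20 and -0.07. The coding probe A_52_P349182 gave 0.04, 0.29, 0.15 and -0.80, so 3 pairs lay above 0 and pair 4 far below (mean -0.08 ± 0.49). The array file lists 3 RefSeq transcripts for this probe and 2 for each of A_51_P501735 and A_52_P279527. Averaged over its 4 probes, Gria4 stood at -0.26 with an adjusted p of 0.144.

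**Figure D1:**
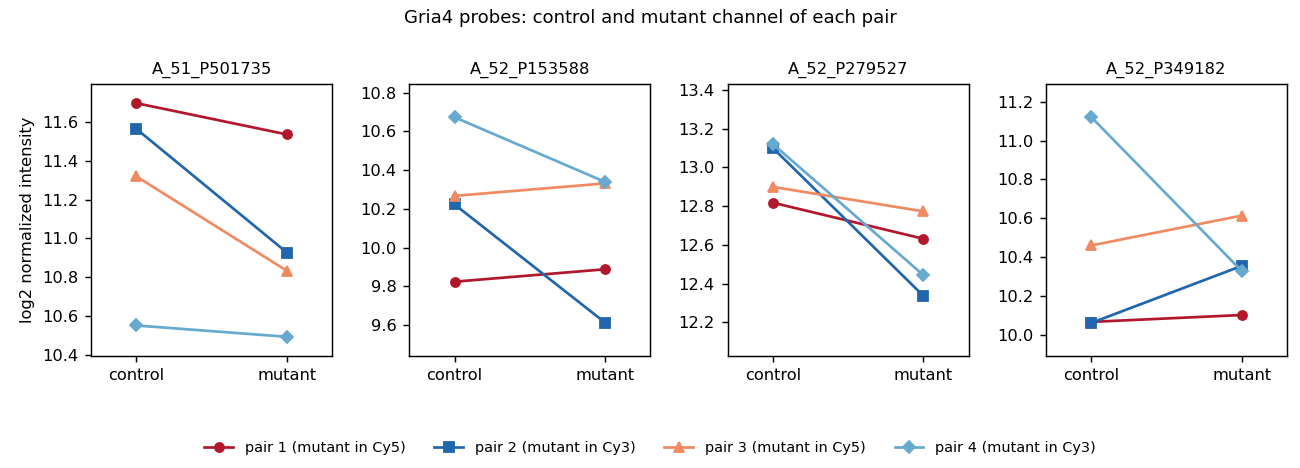
Log2 normalized intensity of the 4 Gria4 probes in the control and the mutant channel, 1 line per littermate pair, with each panel spanning the same range of log2 units. On A_52_P279527 all 4 lines fall, from 12.82 to 13.12 in controls to 12.34 to 12.77 in mutants, whereas on A_52_P349182 the line of pair 4 falls and the other 3 rise.

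With every probe tested as its own feature, no member probe was called over 25915 probes, of which 0.803% were called in either direction. The smallest adjusted p was that of A_52_P279527 of Gria4 (0.0583), followed by Cacng4 (0.291) and A_52_P272364 of Gria3 (0.379). At an unadjusted p under 0.05, limma gave 6 of the 20 tested member probes, against 7.99% of all probes. The dim probe A_52_P539692 of Cacng2 was well above background in 0 of 4 arrays in either channel and was not tested. All 4 pairs lay on 1 side of 0 for 5 of the 20 tested probes, against 14.2% of all probes.

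**Figure D2:**
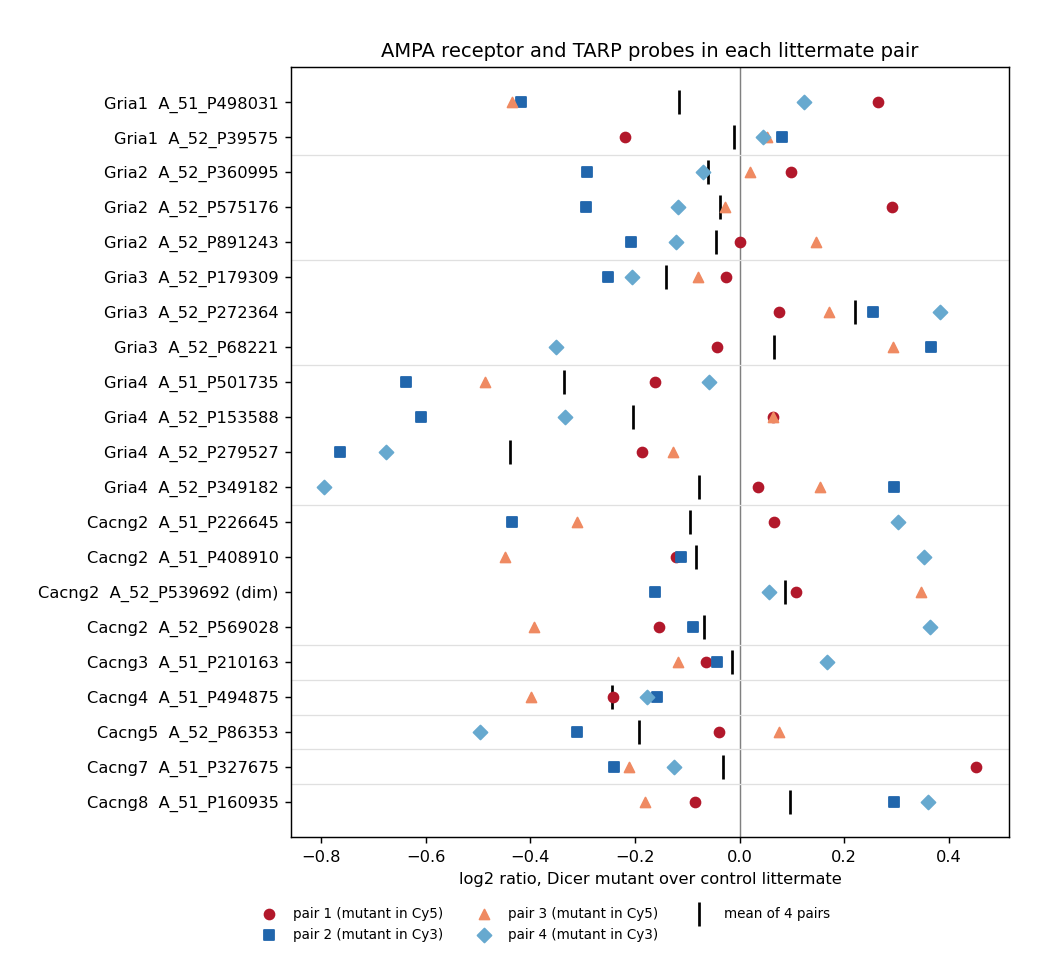
Log2 ratio of mutant over control for each of the 21 probes (rows, grouped by gene) in each of 4 littermate pairs (points, with the mutant's dye in the key), and their mean (bar). A_52_P279527 and A_51_P501735 of Gria4, A_52_P179309 of Gria3 and the probe of Cacng4 have all 4 points below 0, A_52_P272364 of Gria3 has all 4 above, and the other rows straddle 0.

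Gria1 encodes the other subunit of Bergmann glial receptors and is also made by cerebellar neurons. Its brightest probe, A_52_P39575 (chromosome 11, 57143457 to 57143516), gave -0.22, 0.08, 0.05 and 0.04. Pair 1 stood apart below the rest, and the mean was -0.01 ± 0.14 (95% interval -0.19 to 0.17, adjusted p = 0.987). The coding probe A_51_P498031 gave 0.26, -0.42, -0.43 and 0.12, a mean of -0.12 ± 0.36. The probes of Gria1 differed in sign in 3 of 4 pairs, with pairs 2 and 3 low on the coding probe alone. The interval of the brighter probe does not hold a ratio as low as that of Gria4. That of the coding probe, -0.48 to 0.25, does hold it.

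Gria2 encodes the subunit that blocks calcium entry through the pore. Its brightest probe, A_52_P575176 (chromosome 3, 80492452 to 80492511), gave 0.29, -0.29, -0.03 and -0.12, a mean of -0.04 ± 0.24 (95% interval -0.23 to 0.16, adjusted p = 0.951). Pair 1 was high, pair 2 was low and the groups overlapped. The dimmer probes A_52_P360995 and A_52_P891243 had means of -0.06 ± 0.17 and -0.05 ± 0.15. Pair 2 was the lowest pair on all 3 Gria2 probes. On A_52_P360995 the sign turned with the processed signals of the scanner software (0.10) and without background subtraction (0.035).

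Gria3, an X-linked gene, encodes a subunit found with Gria2 in Purkinje neurons. Its brightest probe, A_52_P68221 (chromosome X, 39031099 to 39031158), gave -0.04, 0.37, 0.29 and -0.35, a mean of 0.07 ± 0.33 (95% interval -0.27 to 0.40, adjusted p = 0.946). Pairs 2 and 3 were high and pair 4 was low. The other probes of Gria3 were tighter but opposed each other. A_52_P179309, the coding probe shown above, was below 0 in 4 of 4 pairs at -0.14 ± 0.11, from -0.25 to -0.03. A_52_P272364, for which the array file lists no RefSeq transcript, was above 0 in 4 of 4 pairs at 0.22 ± 0.13, from 0.07 to 0.38. Neither passed the test over all probes (adjusted p = 0.655 and 0.379). A_52_P272364 was dim, at a log2 normalized intensity of 7.04 to 7.29 in mutants and 6.85 to 7.03 in controls. Its ratio moved to 0.57 with the processed signals of the scanner software. It was 0.24 without background subtraction and with median centring, and 0.20 with outlier flags applied after the background fit. The SD given is that of the reported processing.

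Among the TARPs, Cacng4 had the lowest ratio. It encodes gamma-4, a TARP found in glia as well as neurons. The log2 ratios of Cacng4 were -0.24, -0.16, -0.40 and -0.18, so the mutant was lower in 4 of 4 pairs. The mean was -0.24 ± 0.11 (95% interval -0.40 to -0.09), which did not pass (adjusted p = 0.233). A ratio below that of Cacng4 was seen for 2.82% of all genes. The log2 normalized intensity of this probe was 7.05 to 7.32 in mutants and 7.29 to 7.57 in controls, so the groups overlapped. These are dim values, since the untested probe of Cacng2 read 6.05 to 6.40. With the processed signals of the scanner software, the limma ratio of Cacng4 was -0.42 (adjusted p = 0.119). That of Gria4 was then -0.44 (adjusted p = 0.109), so the size of the Cacng4 ratio depended on the processing.

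Cacng5 encodes gamma-5, a TARP known from Bergmann glia, although the grouping used below counts it as neuronal. Its probe A_52_P86353 (chromosome 11, 107736263 to 107736322) gave -0.04, -0.31, 0.08 and -0.50. As with Gria4, the pairs with the mutant in Cy3 were the low ones, with means of -0.40 in Cy3 and 0.02 in Cy5. The mean of Cacng5 was -0.19 ± 0.26 (95% interval -0.36 to -0.03, adjusted p = 0.430).

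Cacng2 encodes stargazin, the TARP that granule neurons need for AMPA receptors at the surface. Its brightest probe A_51_P226645 (chromosome 15, 77823047 to 77823106) gave 0.07, -0.44, -0.31 and 0.30, a mean of -0.09 ± 0.34 (95% interval -0.44 to 0.25, adjusted p = 0.922). The other tested probes, A_51_P408910 and A_52_P569028, had means of -0.08 ± 0.33 and -0.07 ± 0.32. On all 3 tested probes pair 4 was the highest and pair 3 was below -0.3, so pair 4 lay above 0 and pair 3 below 0 on each of them. Cacng7 encodes gamma-7, a TARP abundant in the cerebellum, and gave 0.45, -0.24, -0.21 and -0.13. Pair 1 alone was above 0, and the mean of Cacng7 was -0.03 ± 0.33 (95% interval -0.32 to 0.26, adjusted p = 0.973).

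Cacng3 and Cacng8 encode TARPs best known from the forebrain. Cacng3 gave -0.06, -0.04, -0.12 and 0.17, a mean of -0.01 ± 0.13 (95% interval -0.18 to 0.15, adjusted p = 0.979). Cacng8 gave -0.09, 0.30, -0.18 and 0.36, with the pairs of mutants in Cy3 above 0 and the others below. The mean of Cacng8 was 0.10 ± 0.27 (95% interval -0.05 to 0.24, adjusted p = 0.755), the highest ratio of the members. The control channel of Cacng8 was well above background on 3 of 4 arrays. Both probes were dim, at a log2 normalized intensity of 7.29 to 7.58 for Cacng3 and 6.56 to 6.97 for Cacng8. With the processed signals of the scanner software the ratios of Cacng3 and Cacng8 were -0.07 and 0.18.

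**Figure D3:**
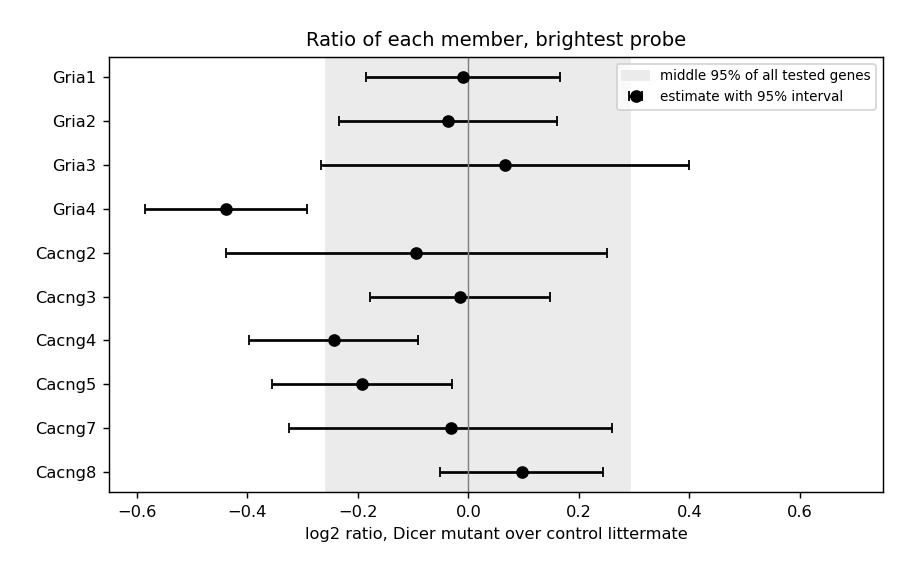
Estimated log2 ratio of mutant over control for the brightest probe of each member, with its 95% interval from the fit over all genes, and the middle 95% of all tested genes in grey. The intervals of Gria4, Cacng4 and Cacng5 lie below 0 before adjustment, and Gria4 (-0.44) is the only estimate outside the grey band of -0.26 to 0.29.

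In order of ratio the members ran Gria4 (-0.44), Cacng4 (-0.24), Cacng5 (-0.19), Cacng2 (-0.09), Gria2 (-0.04), Cacng7 (-0.03), Cacng3 (-0.01), Gria1 (-0.01), Gria3 (0.07) and Cacng8 (0.10). The intervals of each neighbouring pair in this order overlapped. Gria4 lay below Gria2 in 4 of 4 pairs, by 0.48, 0.47, 0.10 and 0.56 on the log2 scale, a mean difference of -0.40 ± 0.21. Gria4 was below Gria3, Cacng3 and Cacng5 in 4 of 4 pairs too, and below Cacng4 in 2 of 4 (-0.19 ± 0.43). Against Gria1, its partner in Bergmann glia, Gria4 was lower in 3 of 4 pairs (-0.43 ± 0.42).

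Gria1 and Gria4, taken as the Bergmann glial subunits, were set against the other 8 members, taken as neuronal. The mean ratio of Gria1 and Gria4 was -0.20, -0.34, -0.04 and -0.32 in pairs 1 to 4, and that of the other 8 was 0.04, -0.10, -0.11 and -0.05. The difference was -0.24, -0.24, 0.07 and -0.26, which is -0.17 ± 0.16, about as large as its spread. It was below 0 in 3 of 4 pairs and ran from -0.25 to -0.09 over the alternatives. No p is given, since the members were chosen with earlier results of these data known. The means were -0.22 and -0.06, and within the glial group Gria4 (-0.44) and Gria1 (-0.01) differed from each other more than the groups did.

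Listed markers of Bergmann glia, among them genes of astroglia such as Slc1a3 and Aqp4, differed in direction. Of 16 tested genes listed as Bergmann glial markers, 3 were called higher: Aldh1l1 (from 1.24 to 1.81 over the pairs), Gfap (1.47) and Fabp7 (1.07). The 6 called lower were Npy (-1.56), Dao (-1.37), Ntsr2 (-1.01), Cldn10 (-0.98), Slc1a2 (-0.57) and Aqp4 (-0.54). The other 7 were not called, and the median ratio over the list was -0.39. Over all genes 1.04% were called in either direction. The marker lists were chosen with earlier results of these data known. The mean log2 intensity over this list, which joins markers of opposite sign, was 12.4 to 12.7 in mutants and 12.7 to 12.8 in controls, and its pair differences were -0.17, -0.26, -0.07 and -0.26. The defining markers Gdf10 (0.86 ± 0.45) and Slc1a3 (-0.50 ± 0.29 on its brightest probe) were well above background in all 4 arrays of both genotypes. Neither Gdf10 nor Slc1a3 was called by limma (adjusted p = 0.0573 and 0.0825). The dimmer Slc1a3 probes A_51_P333324 and A_52_P378975 gave -0.12 ± 0.11 and -0.13 ± 0.12. None of 12 Purkinje, 10 granule and 9 GABAergic interneuron markers was called by limma, with medians of 0.00, 0.01 and -0.04 and 0 of each list at an unadjusted p under 0.05. All 10 oligodendrocyte markers had ratios below 0 (median -0.27), with no call and 3 at an unadjusted p under 0.05. Of 7 oligodendrocyte precursor markers 5 were below 0 (median -0.10), with no call and 4 at an unadjusted p under 0.05. Over all genes 9.17% had such a p and 50.6% had a ratio below 0. Sox10 (-0.22 ± 0.12), Olig2 (-0.22 ± 0.14) and Olig1 (-0.23 ± 0.18) were below 0 in 4 of 4 pairs and Vcan (0.33 ± 0.16) above 0 in 4 of 4. Pdgfra, the defining marker of this list, stood at 0.10 ± 0.11 and was below 0 in 1 of 4 pairs. Gpr17 stood at -0.10 ± 0.14 and Cspg4 at -0.04 ± 0.10. The 8 microglial markers and the 5 of erythrocytes and endothelium had medians of -0.04 and -0.08, with no call by limma and 0 at an unadjusted p under 0.05. Of 6 markers of forebrain neurons, where Cacng3 and Cacng8 are best known, 2 passed the filter and neither was called or had an unadjusted p under 0.05. The 6 choroid plexus markers had a median of 0.15, with pair differences of 0.13, -0.65, 0.49 and 0.61, and none was called or had an unadjusted p under 0.05. The part of these cell types in the Gria4 ratio was not tested.

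The genes with the 4 pair ratios nearest to those of Gria4, by Euclidean distance over the 4 pairs, were A130082M07Rik (0.17), Apoe (0.19), LOC14210 (0.23), Aqp4 (0.25) and BG294923 (0.27). Apoe encodes the lipid carrier of astroglia and stood at -0.44 ± 0.27, and Aqp4 encodes the astroglial water channel and stood at -0.54 ± 0.26. All 5 genes were lowest in pairs 2 and 4, where the mutant was in Cy3, which follows from picking them by nearness to Gria4. Of these 5 genes Aqp4 was called lower (adjusted p = 0.0243). For Gria1 the nearest were Cstf3 (0.04), Riiad1 (0.04), Dhps (0.05), Gemin5 (0.05) and Dus2 (0.05), all with ratios near 0 apart from pair 1. Nearness in 4 values is a description only.

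Proteins that assemble, hold or modify AMPA receptors were next compared. Of 76 listed partner genes, 73 were on the array and 65 were tested, and none was called by limma in either direction; 8 (12.3%) had an unadjusted p under 0.05. Over all genes 1.04% were called and 9.17% had such a p, so the share among partners was near the background. The median was -0.04 and 46 of 65 (70.8%) were below 0, against 50.6% of all genes. Among 6 tested auxiliary proteins other than TARPs, Shisa9 (2700045P11Rik on the array), which slows receptor recovery, stood at 0.34 ± 0.12. It was higher in 4 of 4 pairs, from 0.18 to 0.47, and did not pass (adjusted p = 0.138). The ratio of Shisa9 was 0.49 with the processed signals of the scanner software and 0.20 averaged over its probes. Cnih3, a cornichon that slows channel closing, was lower in 4 of 4 pairs at -0.21 ± 0.16 (adjusted p = 0.431).

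Among 6 genes of receptor assembly in the endoplasmic reticulum the median was -0.08, with Cpt1c at -0.14 ± 0.10 and Abhd12 at -0.29 ± 0.43. For Abhd12, pairs 2 and 3 were low (-0.67 and -0.59) and pair 4 was above 0 (0.26). Among 20 scaffold and trafficking genes the median was -0.01. Dlg4, the postsynaptic scaffold that anchors TARPs, stood at -0.16 ± 0.06, lower in 4 of 4 pairs, and the motor protein gene Myo6 at -0.10 ± 0.11. The Dlg4 probe was dim, at a mean log2 brightness of 7.30. The ratio of Dlg4 was -0.31 with the processed signals of the scanner software and -0.10 averaged over its probes.

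Among 13 extracellular organizers the median was 0.00, with Lgi1, a secreted synaptic protein, at 0.20 ± 0.16 and Olfm2 at -0.08 ± 0.09. Among 10 genes of kinases, phosphatases and RNA editing the median was -0.09. The kinases Prkca (-0.17 ± 0.07) and Camk2a (-0.17 ± 0.11) were each below 0 in 4 of 4 pairs. The probes of Olfm2 and Prkca were dim, at a mean log2 brightness of 6.87 and 7.58. With the processed signals of the scanner software they gave -0.14 and -0.25. Among 10 tested genes of other ionotropic glutamate receptors 9 were below 0, with a median of -0.07. The kainate subunit Grik5 stood at -0.17 ± 0.13 and the obligate NMDA subunit Grin1 at -0.18 ± 0.20. None of the genes named here passed, with adjusted p values from 0.138 for Shisa9 to 0.826 for Olfm2.

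**Figure D4:**
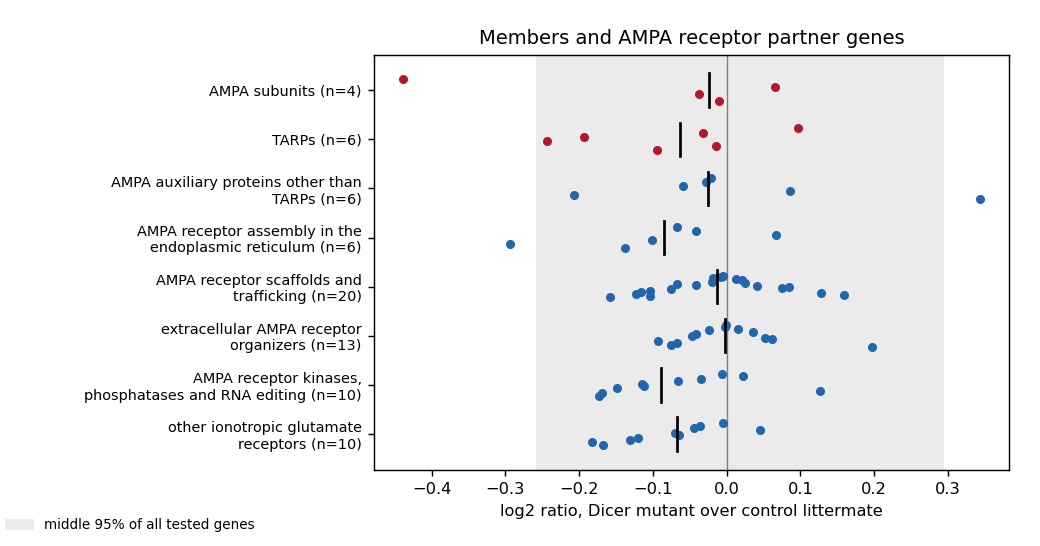
Log2 ratio of mutant over control for each tested AMPA subunit and TARP (red) and for the 6 lists of partner genes (blue), with the median of each list as a bar and the middle 95% of all tested genes in grey. Apart from Gria4, Shisa9 (0.34) and Abhd12 (-0.29) lie outside the grey band.

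**Figure D5:**
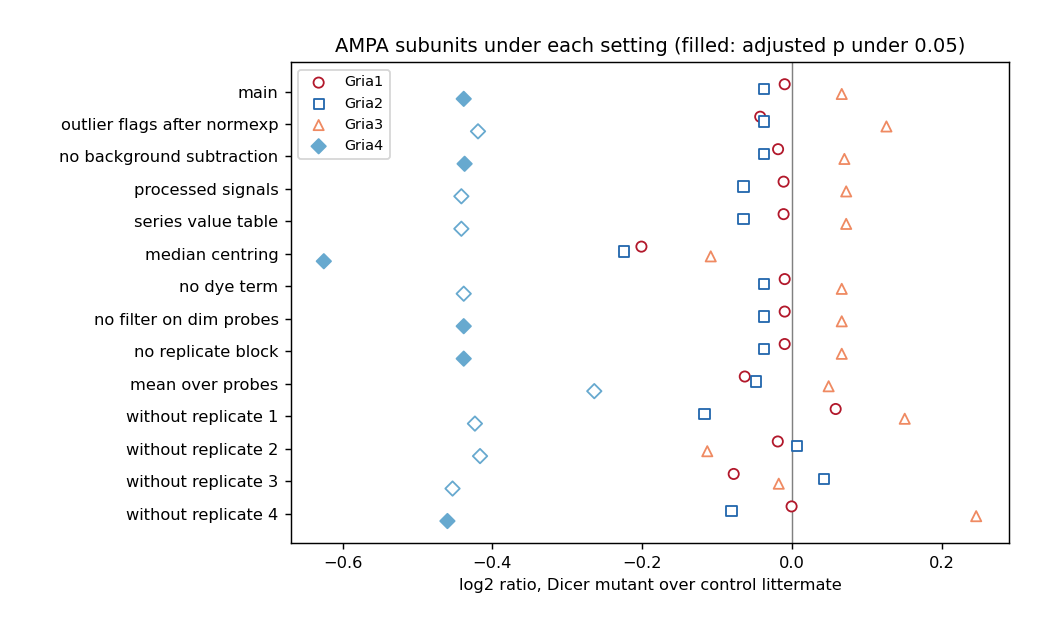
Log2 ratio of the 4 AMPA subunits in the reported analysis (main) and under each alternative; filled symbols have an adjusted p under 0.05. Gria4 stays below 0 in all rows, from -0.63 with median centring to -0.26 with the mean over its probes, and is filled in 6 of them, while Gria1, Gria2 and Gria3 lie closer to 0 and are never filled.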

How the data were processed

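Each deposited array file gives linear intensities of spot and background for both dyes, read with Agilent Feature Extraction 10.5.1.1, per the file headers. They also hold processed intensities (background-subtracted, detrended, dye-normalized) and their log10 ratio, per the file headers. The deposited value table repeats these log10 ratios, reversed in sign on arrays 2 and 4 (checked on all 45018 spots). Deposited log10 ratios were converted to log2 here. Labelling used 500 ng total RNA per dye, per the labels' protocols.

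With limma 3.58.1 in R 4.3.3, background was corrected by normexp (offset 50, outlier-flagged spots left out) and ratios normalized by loess within arrays. A probe was tested if well above background on all 4 arrays in the mutant or in the control channel, with values on at least 3 arrays. The brightest probe stood for a gene. The model had a dye and a genotype term, with 2 residual and 3.44 prior degrees of freedom, and was tested on simulated data. Symbols came from RefSeq (GRCm38.p6) by accession for 24844 probes, and otherwise from the array file. Littermates shared an array by design: the deviations of its 2 channels correlated at 0.374 to 0.712, and those of different arrays at no more than 0.332.

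The text names all members, the 2 partner genes with the smallest p per list, and the 5 genes nearest to Gria1 and Gria4. The members and lists were chosen with earlier results of these data known. Alternatives covered background, signal, normalization, dye term, filter, probe choice, pairing and each left-out pair. The number of arrays limits the precision.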

Additional observations from a re-analysis of the deposited data

Results flagged for a closer look

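In pair 1, 2 of the 21 member probes stood apart from the other 3 pairs. For A_52_P39575 of Gria1, the gap between pair 1 (-0.22) and the nearest other pair was 0.877 of the whole range. For A_51_P327675 of Cacng7, the gap between pair 1 (0.45) and the nearest other pair was 0.835 of the range. Both shares exceed Dixon's 95% critical value for 4 values, which chance passes in about 1 of 20 sets.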

How the results depend on the processing

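Called members numbered 1 (Gria4) in the reported analysis. They numbered 0 with outlier flags applied after the background fit (Gria4 at -0.42, adjusted p = 0.0775), with processed signals or the value table (-0.44, adjusted p = 0.109 in both), in a fit lacking the dye term (adjusted p = 0.225) and for the mean over probes, and 0 to 1 with a pair left out. Called member probes numbered 0, but 2 with median centring (Gria4 A_52_P279527 and A_51_P501735), 1 with no filter on dim probes, 1 with no replicate block (Gria4 A_52_P279527, adjusted p = 0.0487) and 0 to 1 with a pair left out. With no replicate block, the gene Gria4 kept its call (adjusted p = 0.0361). Under median centring Gria4 (-0.63) lay 0.49 below the median of all genes.

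Uncalled members near 0 changed sign: Gria3 to -0.11 with median centring (0.02 above the shifted median), Cacng3 (A_51_P210163) to 1.28e-05 with flags after the background fit, and Gria2 A_52_P360995 to 0.035 without background subtraction and 0.10 with processed signals and in the value table. With a pair left out, ratios ran from -0.28 to 0.090 for Cacng2 (A_51_P226645), -0.20 to 0.033 for A_51_P408910, -0.18 to 0.045 for A_52_P569028, -0.068 to 0.038 for Cacng3, -0.20 to 0.13 for Cacng7, -0.078 to 0.058 for Gria1 (A_52_P39575), -0.29 to 0.058 for A_51_P498031, -0.12 to 0.043 for Gria2 (A_52_P575176), -0.11 to 0.25 for Gria3 (A_52_P68221) and -0.35 to 0.19 for Gria4 A_52_P349182. The cause was not tested. No partner gene was called under any alternative run. Over all genes, higher and lower calls numbered 50 and 32 with flags after the background fit, and 87 and 49 with processed signals or in the value table. Leaving out pair 1 gave 41 and 11, pair 2 gave 127 and 115, pair 3 gave 58 and 27, and pair 4 gave 185 and 107.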

Other observations

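Probes of Gria4 differed in how much control animals varied. On A_51_P501735, the probe at the stop codon, the log2 normalized intensity of the 4 control channels was 11.70, 11.57, 11.32 and 10.55, and pair 4 was lowest in control and mutant (10.49) alike. On A_52_P279527 of the same gene, further along the transcript, the control channels lay between 12.82 and 13.12, and the control of pair 4 was the highest. On A_52_P349182 the control of pair 4 (11.12) was again the highest, above the other 3 at 10.06 to 10.46.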
